A study of Mus musculus with 6 samples.

Results

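In cultured enteric glia (EGCs), 8 chemokine ligand genes were followed at rest and after lipopolysaccharide (LPS, a component of the bacterial outer membrane). They were the interferon-induced ligands Cxcl9, Cxcl10 and Cxcl11, the ligands Cxcl12, Cxcl13 and Cxcl14 that many tissues make at rest, and Cxcl16 and Cx3cl1, which are made as membrane proteins. Enteric glia are the supporting cells of the nerve plexuses in the gut wall. The genes were chosen by symbol, and each symbol matched 1 of the 46603 gene identifiers, so that 8 of 46603 were followed.

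Chemokines are small secreted or membrane-anchored proteins that guide leukocytes along a gradient by binding G protein-coupled receptors. CXCL9, CXCL10 and CXCL11 bind CXCR3 on activated T cells and natural killer cells, and interferons induce them through interferon regulatory factors among others. CXCL12 acts through CXCR4 and is removed by the scavenger receptor ACKR3, CXCL13 draws B cells through CXCR5, and CXCL14 is made by many epithelia and by stroma. CXCL16 and CX3CL1 hold their chemokine domain on a mucin-like stalk, are shed by the proteases ADAM10 and ADAM17, and bind CXCR6 and CX3CR1, the latter a receptor of resident gut macrophages.

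Poly(A) RNA had been sequenced from neurosphere-derived EGCs that started from the entire E14.5 intestine of C57BL/6J mice, with 3 control libraries (no treatment) and 3 libraries from cells given LPS at 100 ng/ml for 12 h. All 6 cultures had passed through a week as floating spheres with EGF and FGF and then grew to confluence on a coated plate in serum. The labels numbered the replicates in each group but did not say whether they were separate litters or cultures, so p-values measure the spread between these libraries, which may be technical. Total counts per library ran from 18775316 to 23664312, and 3 counts, the floor used here, corresponded to 0.124 to 0.167 CPM (CPM are counts scaled to a common library size, corrected for composition). Floors, and the interval given for the count ratio of Cxcl9, cover counting error only, whereas intervals of log2 fold changes come from the fit and include the spread between libraries.

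The cultures were not glia alone. Of 10 glial markers 9 were above the floor in all 6 libraries, among them Sox10 at 73.8 to 101 CPM in control and 75.9 to 78.2 CPM in LPS. Within this list S100b (log2 fold change -1.91) and Cdh19 (-0.66) were called lower in LPS and Fabp7 (1.29) higher, so 2 of the 9 tested were lower and 1 higher (over all tested genes, 6.71% and 9.09%). However, all 12 macrophage markers were above the floor as well. The libraries numbered 3 stood apart in both groups. The macrophage markers summed to 4441, 5808 and 13770 CPM in control replicates 1, 2 and 3, and to 4181, 5427 and 21130 CPM in the LPS libraries. Of these 12 markers Adgre1 was called higher in LPS (log2 fold change 2.78), and Mrc1, not called, was at 197, 331 and 752 CPM in control and 9.29, 10.4 and 131 CPM in LPS. Mesenchymal markers were abundant in both groups (15090 to 16120 CPM in sum), whereas smooth muscle markers summed to 2266 to 2492 CPM in control and 634 to 900.3 CPM in LPS, with 6 of 6 called lower, against 6.71% of all tested genes. None of the 7 lymphocyte markers exceeded 3 counts in any library, with Cd3e, Cd3d and Ncr1 at 0 throughout. Of 6 neutrophil markers 2, and of 7 dendritic cell markers 2, exceeded 3 counts in any library. Both of these neutrophil markers were at higher levels in LPS: S100a8, called higher, was at 0.127, 0.133 and 0.827 CPM in control and 14.9, 13.5 and 4.03 CPM in LPS, and Csf3r, not called, at 2.88, 3.32 and 13.2 CPM against 16.4, 23.7 and 71.4 CPM. The part of any of these cells in the chemokine levels was not tested. For these reasons the fit without the libraries numbered 3 is also given below where it changes a call. Sizes of change in that fit are given for some genes only.

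Sequence upstream of the start site was found for 6 of the 8 genes (RefSeq, GRCm38.p6), and not for Cxcl11 and Cxcl16. The 250 bases before the start are shown for a pair of genes that rose, Cxcl9 (chr5:92328080-92328329, minus strand) and Cxcl10 (chr5:92348890-92349139, minus strand), and for a pair that did not, Cxcl12 (chr6:117168285-117168534, plus strand) and Cxcl14 (chr13:56296552-56296801, minus strand). They are written 5′ to 3′ on the strand of the gene, and capitals mark matches to any of 3 motifs on either strand.

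Cxcl9: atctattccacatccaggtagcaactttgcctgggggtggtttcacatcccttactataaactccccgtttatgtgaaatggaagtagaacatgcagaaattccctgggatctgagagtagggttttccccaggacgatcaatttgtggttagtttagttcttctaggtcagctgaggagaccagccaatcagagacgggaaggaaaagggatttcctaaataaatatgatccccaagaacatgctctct

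Cxcl10: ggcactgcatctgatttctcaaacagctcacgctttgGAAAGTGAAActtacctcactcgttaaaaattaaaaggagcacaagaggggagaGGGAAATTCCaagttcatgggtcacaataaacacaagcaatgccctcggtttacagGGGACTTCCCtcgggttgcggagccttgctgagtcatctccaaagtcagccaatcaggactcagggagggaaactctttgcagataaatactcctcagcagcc

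Cxcl12: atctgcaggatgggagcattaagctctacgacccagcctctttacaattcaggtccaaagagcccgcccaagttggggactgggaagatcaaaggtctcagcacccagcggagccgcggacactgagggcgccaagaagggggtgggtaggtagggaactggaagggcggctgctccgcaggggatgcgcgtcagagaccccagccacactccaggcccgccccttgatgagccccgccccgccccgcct

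Cxcl14: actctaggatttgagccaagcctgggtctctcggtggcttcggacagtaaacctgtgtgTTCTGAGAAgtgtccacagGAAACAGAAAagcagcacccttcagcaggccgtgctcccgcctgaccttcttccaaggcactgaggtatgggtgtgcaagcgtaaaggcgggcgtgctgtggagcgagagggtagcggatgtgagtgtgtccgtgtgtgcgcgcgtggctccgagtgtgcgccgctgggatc

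The motifs were the interferon-stimulated response element (ISRE, GAAA, any 2 bases, GAAA), the interferon-gamma activated site (GAS, TTCNNNGAA) and the NF-κB consensus. They matched 2.97%, 7.01% and 3.9% of 32817 upstream windows of the same length. In the Cxcl10 window the ISRE match GAAAGTGAAA began 213 bases before the start, and the NF-κB matches GGGAAATTCC and GGGACTTCCC began 159 and 103 bases before it. The Cxcl14 window held the ISRE match GAAACAGAAA and the GAS match TTCTGAGAA, 172 and 191 bases before the start. The windows of Cxcl9, Cxcl12, Cxcl13 and Cx3cl1 held none of these letters, but 171 of the 250 bases of the Cx3cl1 window lie inside an exon of that gene by the GENCODE annotation, whose start differs from that of RefSeq. No motif overlapped another, and a match describes letters only.

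LPS and control libraries were then compared. Of the 8 chemokine genes, 4 were called higher in LPS and 0 lower (edgeR quasi-likelihood test, adjusted p under 0.05 over 15226 genes), where 15.8% of all tested genes were called, 9.09% higher and 6.71% lower. The genes called higher were Cxcl9, Cxcl10, Cxcl11 and Cxcl16. All 8 passed the filter on low counts, but Cxcl9 and Cxcl11 passed it through the LPS libraries alone, so the count of 4 rests partly on how genes entered the test. In 5 of the 8 every LPS library lay above every control library, as it did in 19.3% of all tested genes, and in 0 of them every LPS library lay below, against 19.4%. Without both libraries numbered 3 the count was 5 higher and 1 lower, against 22.6% and 20.4% of all tested genes, and with the replicate number as a block 4 higher and 1 lower, against 15.4% and 14.9%. In bulk RNA a change in the number of cells of a type and a change in RNA per cell cannot be told apart.

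**Figure D1:**
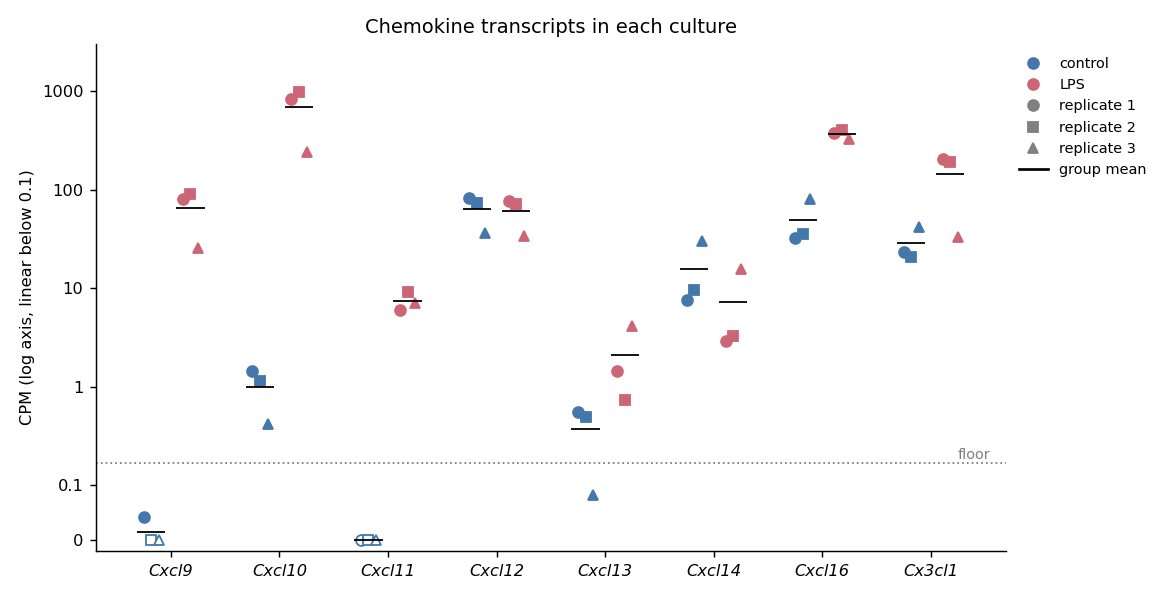
CPM (logarithmic axis that is linear below 0.1) of the 8 chemokine genes in each of the 6 libraries, with control in blue, LPS in red, 1 symbol per replicate number, open symbols for 0 counts, black lines for group means and a dotted line at the highest floor of 3 counts (0.167 CPM). The groups do not overlap for Cxcl9, Cxcl10, Cxcl11, Cxcl13 and Cxcl16, and the triangles of replicate 3 lie apart from the other symbols for most genes.

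The 3 ligands of CXCR3 all rose. Cxcl9 and Cxcl11 were at or under the floor in every control library, and Cxcl10 was above it in each. Cxcl10 (chromosome 5, 92346638 to 92348889, minus strand, ENSMUSG00000034855) was at 1.44, 1.15 and 0.413 CPM in control replicates 1, 2 and 3 and at 838, 970 and 242 CPM in the LPS libraries. The lowest LPS library thus lay far above the highest control. The log2 fold change was 9.41 (SE 0.84, 95% interval 7.36 to 11.46, adjusted p = 0.00238 by edgeR), and it ran from 9.05 to 9.82 when single libraries were left out. Within each number, LPS over control was 582-fold, 843-fold and 586-fold, and replicate 3, lowest among the LPS libraries, was also lowest among the controls.

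Cxcl9 (chromosome 5, 92321347 to 92328079, ENSMUSG00000029417) had 1, 0 and 0 counts in the controls and 1605, 1602 and 488 counts in the LPS libraries, or 79.3, 89.3 and 25.5 CPM. Here too LPS replicate 3 was lowest, at 0.303 times the mean of the other LPS libraries, against 0.268 times for Cxcl10. With 1 count in all controls together the ratio of LPS to control was 4540, with an exact 95% counting interval from 814 to 179400 (edgeR adjusted p = 0.00176). Cxcl11 (chromosome 5, 92359544 to 92365485, ENSMUSG00000060183) had 0 counts in every control and 121, 163 and 134 counts in LPS, which is 5.98, 9.08 and 7.01 CPM. It was at least 57.5-fold higher in LPS than a floor of 3 counts in each control library (edgeR adjusted p = 0.00263). LPS replicate 3 lay between the other LPS libraries, at 0.931 times their mean. Both genes stayed called in all 14 alternatives in which they were tested. Under the low-count filter they entered through the LPS libraries alone, and a filter asking 10 counts of each library removed both. The number of fits is therefore no independent support for these calls.

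Among the CXCR3 ligands, Cxcl10 was by far the most abundant per length. In CPM per kilobase of exon, LPS libraries 1, 2 and 3 held 372, 430.9 and 107.5 of Cxcl10, 26.3, 29.6 and 8.47 of Cxcl9 and 1.58, 2.39 and 1.85 of Cxcl11. The ratio of Cxcl10 to Cxcl9 per length was 14.1, 14.6 and 12.7 in the LPS libraries, whereas that of Cxcl10 to Cxcl11 was 236, 180 and 58.1. The annotation (GENCODE M21) lists Cxcl11 as a polymorphic pseudogene, since the C57BL/6 reference allele carries a shifted reading frame, while the other 7 genes are listed as protein-coding.

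The CXCR3 ligand genes lie side by side on the minus strand of chromosome 5, inside or next to Art3, which runs from 92331827 to 92414628 on the plus strand. Art3 exons cover 133 bases (5.91%) of the Cxcl10 exons, and Art3 was at 5.42, 5.93 and 2.77 CPM in control and 8.01, 7.75 and 4.92 CPM in LPS (edgeR adjusted p = 0.335). A processed pseudogene on the plus strand, Gm2673, covers 1582 bases (41.7%) of the Cxcl11 exons and had 0 counts in all 6 libraries. The kit preserved strand, but the strand setting of the counting is not given in the sources used here, so Cxcl11 may be counted low. Around the cluster, Sdad1 (log2 fold change 0.61, edgeR adjusted p = 0.0228) was called higher and Scarb2, a lysosomal membrane protein gene, lower (-0.57, 0.0253), and Ppef2, Naaa, Art3 and Nup54 were not called. The 2 calls were lost without control replicate 1 or 2 or LPS replicate 1 or 2 (adjusted p up to 0.118), that of Sdad1 also with library size as the single scaling (0.0537). With the replicate number as a block Ppef2, Naaa and Nup54 were called higher as well, with log2 fold changes of 1.44, 0.44 and 0.30. Without both libraries numbered 3 Art3 was called as well (0.50, adjusted p = 0.0377), so that 5 of the 6 neighbours were called higher and 1 lower, in a fit that called 22.6% and 20.4% of all genes. The largest log2 fold change among them with all 6 libraries was 1.53, that of Ppef2.

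Of the membrane-anchored chemokines, Cxcl16 (chromosome 11, 70453983 to 70459984, minus strand, ENSMUSG00000018920) rose from 32.0, 35.3 and 80.3 CPM in control to 374.5, 403.02 and 326 CPM in LPS. Its LPS levels varied least, relative to their mean, among the 8 genes (368 ± 38.8 CPM, SD, n = 3), while control replicate 3 stood at 2.39 times the mean of the other controls. The log2 fold change was 2.90 (SE 0.39, 95% interval 1.94 to 3.87, adjusted p = 0.00894 by edgeR). The call was lost in 1 of 15 alternatives, without control replicate 2 (2.72, adjusted p = 0.0544), and without both libraries numbered 3 the log2 fold change was 3.55 (adjusted p = 8.66e-07). By number, LPS over control was 11.7-fold, 11.4-fold and 4.06-fold.

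Exons of Zmynd15, on the opposite strand, overlap 552 bases (18.3%) of the Cxcl16 exons. Zmynd15 rose as well, from 2.67, 1.68 and 4.67 CPM to 20.9, 25.2 and 23.0 CPM (edgeR, 2.93 in log2, adjusted p = 0.00735). Its counts were 4.76% to 8.34% of those of Cxcl16 in each library. Reads of Cxcl16 counted to Zmynd15 and the reverse cannot be told apart here, and their part in the rise of Zmynd15 was not tested.

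Cx3cl1 (chromosome 8, 94772009 to 94782427, plus strand, ENSMUSG00000031778) gave a split result. It was at 23.3, 20.9 and 41.6 CPM in control and at 203, 193 and 33.3 CPM in LPS. LPS replicates 1 and 2 lay above every control, whereas LPS replicate 3 fell inside the control range. With all 6 libraries the log2 fold change of 2.32 (SE 0.70, 95% interval 0.60 to 4.04) was not called (edgeR adjusted p = 0.0779), nor was it with the block (2.11, 0.131). Without LPS replicate 3 it was called (2.79, adjusted p = 0.0048), as without both libraries numbered 3 (3.18, 1.27e-06). By number, LPS over control was 8.69-fold, 9.23-fold and 0.802-fold, which makes Cx3cl1 the member of the 8 with the least uniform change among those counted above the floor in every library.

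**Figure D2:**
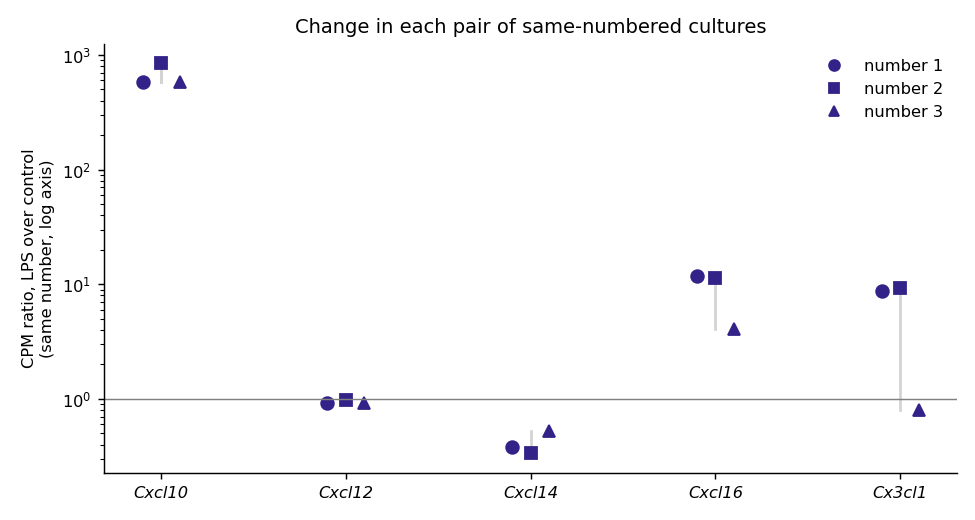
Ratio of CPM, LPS over control, for libraries with the same replicate number (logarithmic axis, grey line at no change), for the 5 genes above the floor in all 6 libraries. Cxcl10 lies between 582-fold and 843-fold and Cxcl12 just under 1 in all 3 pairs, Cxcl14 is below 1 in all 3, and for Cxcl16 and Cx3cl1 number 3 lies lowest.

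None of the ligands usually made at rest was called by edgeR with all 6 libraries and no block. Cxcl12 (chromosome 6, 117168535 to 117181367, plus strand, ENSMUSG00000061353) was at 82.2, 73.5 and 36.2 CPM in control and at 75.9, 72.1 and 33.7 CPM in LPS. The groups overlapped almost completely, and in both of them replicate 3 was lowest, at 0.465 and 0.455 times the mean of the other libraries of its group. The neuron markers, at 412, 409.8 and 244 CPM in sum in control and 381, 399.8 and 259 CPM in LPS, were lowest in the same libraries. The endothelial markers, at 40.8, 48.5 and 75.05 CPM in sum in control and 21.9, 24.5 and 30.4 CPM in LPS, moved unevenly, with Pecam1, Cdh5 and Kdr highest and Emcn and Tek lowest in the libraries numbered 3 of both groups, and Vwf highest in control replicate 3 but not in LPS replicate 3. The part of these cells was not tested. The log2 fold change was -0.08 (95% interval -1.10 to 0.94, edgeR adjusted p = 0.92). This interval still allows a change of about 2-fold in either direction, and the sign turned in 3 of the fits without a single library (0.16, 0.043 and 0.21). With libraries taken by number the ratios were 0.923, 0.981 and 0.931, a narrower spread than between the libraries of a group, and the block left it uncalled (-0.08, adjusted p = 0.318).

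Cxcl14 (chromosome 13, 56288643 to 56296551, minus strand, ENSMUSG00000021508) was at 7.63, 9.65 and 29.8 CPM in control and at 2.92, 3.23 and 15.6 CPM in LPS. The group ranges overlapped, because LPS replicate 3 exceeded control replicates 1 and 2. With all 6 libraries and no block it was not called (log2 fold change -1.11, SE 0.85, 95% interval -3.20 to 0.97, edgeR adjusted p = 0.418). With the replicate block it was called lower (-1.27, adjusted p = 0.00967), where 14.9% of all tested genes were called lower, and without both libraries numbered 3 as well (-1.47, adjusted p = 0.00148). LPS over control was 0.382, 0.335 and 0.523 by number. Cxcl14 and Cxcl12 thus moved in opposite ways in the libraries numbered 3: per length, Cxcl12 over Cxcl14 was 2.41, 1.7 and 0.271 in control and 5.82, 4.99 and 0.482 in LPS. The summed macrophage markers were likewise highest in those libraries (13770 and 21130 CPM), and their part in the level of Cxcl14 was not tested.

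Cxcl13 (chromosome 5, 95956951 to 95961068, plus strand, ENSMUSG00000023078) was close to the floor, with 13, 11 and 2 counts in control and 29, 13 and 78 counts in LPS. In CPM these were 0.551, 0.487 and 0.0827 against 1.43, 0.724 and 4.08. The groups did not overlap, but LPS replicate 3 was 3.78 times the mean of the other LPS libraries. The gene was not called by edgeR (log2 fold change 2.47, SE 0.86, 95% interval 0.36 to 4.58, adjusted p = 0.11), and without both libraries numbered 3 the log2 fold change was 1.08 (0.0877).

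Across the group, LPS changed which chemokine transcripts dominated. The summed level of the 8 genes, in CPM per kilobase of exon, was 31.9, 32.2 and 58.2 in control and 588, 656.5 and 250.5 in LPS. In control, Cxcl16 led by group mean with 16.3 ± 8.93, followed by Cxcl14 with 8.59 ± 6.71, Cxcl12 with 7.82 ± 2.99 and Cx3cl1 with 7.28 ± 2.88 CPM per kilobase (SD, n = 3). The place of Cxcl14 rested on control replicate 3, where it was at 16.31. In control replicates 1 and 2 Cxcl14 was the lowest of these genes, at 4.175 and 5.282, and Cxcl12 came second, at 10.05 and 8.988. Over these lengths Cxcl16 was the highest of the 8 genes in each control library, and its range overlapped that of Cxcl14 but not those of Cxcl12 and Cx3cl1. The ranges of Cxcl14, Cxcl12 and Cx3cl1 overlapped one another. With the longest transcript in place of all exons the mean of Cxcl12 was 11.4 CPM per kilobase, in the second place, and Cxcl12 then lay above Cxcl16 in control replicate 1. Below them came Cxcl10 at 0.445 ± 0.235 and Cxcl13 at 0.325 ± 0.221 CPM per kilobase, which also overlapped, and Cxcl9 and Cxcl11 at or under the floor.

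In LPS, Cxcl10 came first with 304 ± 172 CPM per kilobase (SD, n = 3), at percentile 99.2 of the tested genes against percentile 11 in control. Cxcl16 followed with 122 ± 12.8 (percentile 97.7, from 80.6) and Cx3cl1 with 36.4 ± 24.2 CPM per kilobase (percentile 90.6, from 60.5). Cxcl10 made up 63.3%, 65.6% and 42.9% of the summed level in LPS libraries 1, 2 and 3, and Cxcl16 21.1%, 20.3% and 43.1%. In LPS replicate 3 the levels of Cxcl10 and Cxcl16 were therefore about equal, with a ratio of 0.995, against 3 and 3.23 in the other LPS libraries. Of the neighbours in the LPS order, Cxcl16 and Cx3cl1 alone did not overlap.

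**Figure D3:**
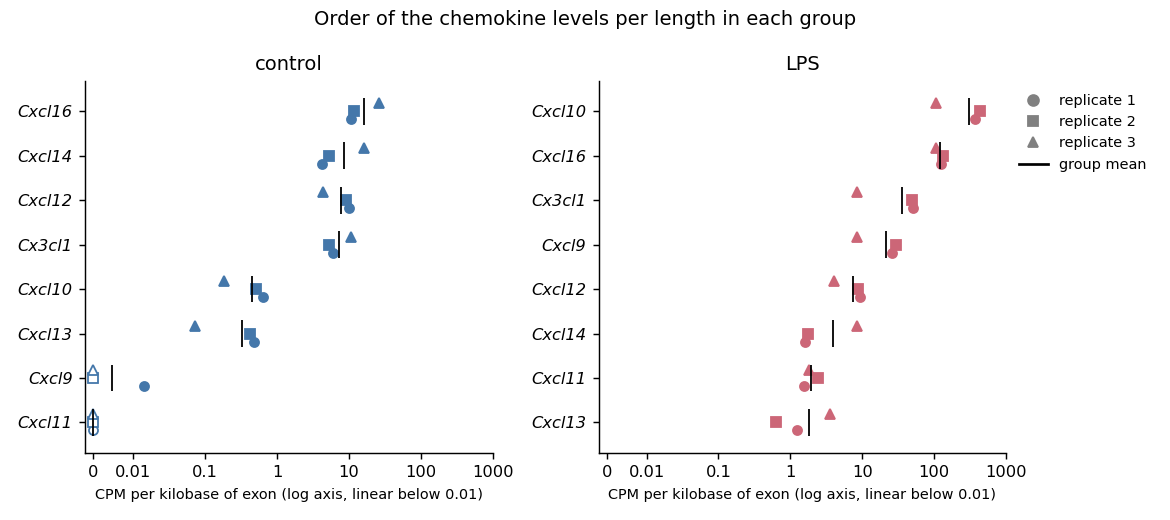
CPM per kilobase of exon (logarithmic axis that is linear below 0.01) of the 8 genes in control (left) and LPS (right), ordered by group mean, with 1 symbol per replicate number, open symbols for 0 counts and black lines for means. Cxcl16 (16.3) leads in control and Cxcl10 (304) in LPS, where Cxcl12 (7.41) stands at the fifth place.

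Next, the receptors of these ligands were examined in the same cultures. Of 8 receptor genes 6 were tested, 1 was called lower and 0 higher, where 6.71% and 9.09% of all genes were. The call was Ackr4, an atypical receptor that scavenges chemokines without signalling through G proteins, at 7.58, 6.64 and 2.07 CPM in control and 0.494, 0.446 and 0.89 CPM in LPS (edgeR, -3.14 on the log2 scale, SE 0.59, adjusted p = 0.0228). It was lost with limma-voom and without control replicate 1 or 2 or LPS replicate 1 or 2 (adjusted p up to 0.0985). Cxcr4, the signalling receptor of CXCL12, was at 13.6, 20.0 and 57.2 CPM in control and 1.09, 1.28 and 7.22 CPM in LPS, so that every LPS library lay below every control. By edgeR with no block it was not called (-3.24, adjusted p = 0.0714, and -4.68 to -2.38 when single libraries were left out), but it was with the replicate block (-3.42, adjusted p = 0.00181), by DESeq2 (-3.23, 0.00129) and without LPS replicate 3.

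Cx3cr1 also differed with replicate 3, with 3.14, 7.75 and 48.1 CPM in control and 0.198, 0.167 and 9.53 CPM in LPS (edgeR, -2.57 in log2, adjusted p = 0.342, and 0.0175 with the block). Its log2 fold change ran from -6.71 without LPS replicate 3 to -0.71 without control replicate 3, uncalled in both. Cxcr3, the receptor of the induced ligands, was at 0.805, 1.24 and 1.57 CPM in control and at 0.0988, 0.0557 and 0.576 CPM in LPS (adjusted p = 0.097, and 0.0376 with the block). With the block, and without both libraries numbered 3, the same 4 receptors were thus called lower and 0 higher, where these fits called 14.9% and 20.4% of all genes lower. DESeq2 called 3 receptors lower, Ackr4, Cxcr4 and Cxcr3, in a fit that called 1673 of 15226 genes lower. In LPS replicates 1 and 2 Cxcr3 was under the floor, with 2 counts and 1 count. Cxcr4, Cx3cr1 and Cxcr3 were each highest in control replicate 3, the control with the highest summed macrophage markers (13770 CPM). In LPS replicate 3, where that sum was higher still (21130 CPM), they were highest among the LPS libraries but lower than in control replicate 3. The part of macrophages in these levels was not tested. Ackr3, the scavenger of CXCL11 and CXCL12, was at 24.1, 19.7 and 4.22 CPM in control and 32.7, 21.1 and 9.53 CPM in LPS and was not called. Cxcr5 and Cxcr6 were not tested, with at most 3 and 7 counts in a library.

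The proteases that release or trim these chemokines changed unevenly. Of 12 genes 11 were tested, 3 were called higher and 0 lower, against 9.09% and 6.71% of all genes. Adam17, a sheddase of CX3CL1 and CXCL16, went from 114, 127 and 155 CPM to 251, 262 and 316 CPM (1.07 in log2, adjusted p = 0.0104 by edgeR), which lost its call without control replicate 2 (0.0659). Adam10, the sheddase that acts without stimulation, was at 295, 297 and 327 CPM in control and 228, 212 and 258 CPM in LPS, at the edge of the threshold (-0.39, adjusted p = 0.0504). It was called lower in 8 of 15 alternatives, among them the block (-0.40, 0.0138), DESeq2 and limma-voom.

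Mmp9 and Mmp13, matrix metalloproteinases able to cut several CXC chemokines, had log2 fold changes of 6.07 and 5.65 (adjusted p = 0.00176 and 0.0031 by edgeR). Mmp9 was at 10.2, 9.52 and 10.3 CPM in control and 875, 851 and 301 CPM in LPS, so its LPS replicate 3 was lowest, like that of Cxcl9, Cxcl10 and Cx3cl1. Dpp4, which clips the N-terminus of CXCL9 to CXCL12, was at 1.86, 1.86 and 2.73 CPM in control and 0.297, 0.669 and 1.2 CPM in LPS (-1.57, adjusted p = 0.0874, and 0.0287 with the block). With the block 3 of these genes were called higher and 3 lower, against 15.4% and 14.9% of all genes. The latter were Dpp4, Adam10 and Ctsb, the last at -0.56 on the log2 scale (adjusted p = 0.0135). Without both libraries numbered 3, Ctss was called lower as well (-0.45, adjusted p = 0.0329) and Mmp2 higher (0.19, 0.0246). Of 4 tissue inhibitors of metalloproteinases 3 were tested, 1 was called higher and 2 lower, against 9.09% and 6.71% of all genes. Timp1 rose (3.31, adjusted p = 0.00785), Timp3, an inhibitor of ADAM17, fell (-1.96, 0.00176), from 1262, 1087 and 1083 CPM to 299, 241 and 345 CPM, and Timp2 fell (-0.58, 0.0289), a call lost without control replicate 1 or 2 or LPS replicate 1 or 2 (up to 0.134).

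Genes of the interferon and LPS pathways that lead to the CXCR3 ligands were then compared. Of 20 genes 18 were tested, of which 11 were called higher and 0 lower (9.09% and 6.71% of all genes), with a median log2 fold change of 0.79 against -0.02 over all tested genes. Stat2, a factor activated by the type I interferon receptor, was at 49.2, 44.4 and 56.3 CPM in control and at 318, 330 and 534 CPM in LPS (log2 fold change 2.98, adjusted p = 0.00179 by edgeR). Irf9, its DNA-binding partner, had a log2 fold change of 2.07 and Irf1, a regulator induced by interferons, of 1.99 (adjusted p = 0.000157 and 0.00144). Irf7 rose most, from 4.03, 4.52 and 5.12 CPM to 467, 493 and 955 CPM (7.13, adjusted p = 0.000417). Stat2 and Irf7 were highest in LPS replicate 3, the library in which Cxcl9 and Cxcl10 were lowest.

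Upstream of them, Ifng, which encodes interferon-gamma, had 0 counts in all 6 libraries, and Ifnb1, which encodes interferon-beta, had 17 counts in LPS replicate 3 and 0 in the other 5, all measured at the single time of 12 h. Jak2 and Nfkb1 had log2 fold changes of 2.65 and 1.86 (edgeR adjusted p = 0.00371 and 0.00044). Jak2 was lowest in LPS replicate 3, with 397, 422 and 214 CPM. Ifnar2, Ifngr2, Jak1 and Rela were called higher with log2 fold changes of 1.06, 0.91, 0.34 and 0.44. The calls for Jak1 and Rela were lost in 8 and 6 of 15 alternatives, with adjusted p-values up to 0.209 and 0.121, and that for Ifnar2 without control replicate 2 (0.0533). With the block, Ifnar1 and Tyk2 were called higher too (0.55 and 0.66), and without both libraries numbered 3 also Ifngr1 (0.39), while Irf8 was then called lower (-0.49, adjusted p = 0.0472). Tlr4, the LPS receptor, was at 85.3 to 98.2 CPM in control and 88.5 to 99.2 CPM in LPS and was not called, nor were Irf3 and Ticam1.

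Finally, genes whose levels followed each chemokine most closely over the 6 libraries were listed, as a description without a test, since with 2 groups many genes share such a pattern. Cxcl10 correlated best with Tapbpl, H2-Q6 and Nfkbiz (Pearson r of log2 CPM from 0.9991 to 1), and Cxcl9 with Serping1, Ptpn2 and Icam1 (0.999 to 0.9992). For Cxcl11 these were Traf1, G3bp2 and Cd47 (0.9995 to 0.9998), and for Cxcl16 Timp1, Ch25h and Zswim6 (0.9979 to 0.999). Cx3cl1 was followed by Ripk3, Rbpsuh-rs3 and Lmf1 (0.9916 to 0.9959), each with LPS replicate 3 near its control level. Ripk3 was at 35.4, 35.0 and 38.2 CPM in control and 53.6, 52.0 and 36.8 CPM in LPS.

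The genes closest to Cxcl12 and Cxcl14 differed between replicate 3 and the other libraries in both groups. Closest to Cxcl12 were Hoxb5, Armcx2 and Smoc2 (r from 0.9977 to 0.9981), and Smoc2 was at 380, 348 and 149 CPM in control and 379, 339 and 131 CPM in LPS. Closest to Cxcl14 were Tmem8, Fcrls and Lat2 (0.998 to 0.9991), and Fcrls was at 72.5, 117 and 613 CPM in control and 12.7, 16.8 and 211 CPM in LPS. Cxcl13 had the loosest match, with Nmnat1 at r = 0.985. Among the chemokine genes themselves r was 0.996 between Cxcl9 and Cxcl10, 0.804 between Cxcl16 and Cx3cl1 and -0.787 between Cxcl12 and Cxcl14, over the same 6 libraries.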

How the data were processed

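The data were raw gene counts of 6 poly(A) RNA libraries, 3 control and 3 LPS, grouped by their titles. Per the series text and the submitters' processing notes, the authors trimmed reads (cutadapt 1.15), removed contaminants (Bowtie2 2.3.3.1), aligned to GRCm38 with STAR 2.5.2b and produced counts per gene with featureCounts 1.5.3, which were deposited unnormalized. The handling of strand and of multiply mapped reads is not given in the sources used here. A table of the whole series repeated the same counts and was not used.

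Genes were filtered with filterByExpr (minimum count 10, minimum total 15), which kept 15226 genes, scaled with TMM factors (0.918 to 1.08) and compared with the quasi-likelihood F-test of edgeR 4.0.16 (R 4.3.3), two-sided, group as the single term, Benjamini-Hochberg adjustment over all tested genes. The SE is the absolute log2 fold change divided by the square root of F. Lengths are unions of GENCODE M21 exons. The members and gene lists were chosen with earlier results of these data known. Named genes were all members, list genes (1 is counted but not reported here) and, per member, the 3 genes of at least 5 CPM in a group with the highest correlation of log2 CPM (prior count 2). Alternatives were other scaling, filters, DESeq2 1.42.0, limma-voom (limma 3.58.1), a replicate block and each library left out. Leaving out both libraries numbered 3 was added after seeing the data. Deviations from group means correlated between control and LPS libraries of the same number (r = 0.513, 0.334 and 0.613 across genes), so the numbers were taken to pair the libraries. The labels do not say what a number stands for, and libraries numbered 1 and 2 also correlated across groups (0.419 and 0.323), so the data set number 3 apart but do not tell 1 from 2.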

Additional observations from a re-analysis of the deposited data

How the results depend on the processing

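Cxcl10 was called higher under every alternative. Cxcl9 and Cxcl11 were called higher in each that tested them, but they passed the low-count filter through the LPS libraries alone. For these genes the number of fits is thus no independent support. A filter that asked 10 counts of each library removed Cxcl9, Cxcl11 and Cxcl13 and left 2 genes called higher. Cxcl16 lost its call only without control replicate 2 (range 2.68 to 3.47 over fits without a single library) and was 3.55 without both libraries numbered 3. DESeq2 called 6 genes higher, adding Cxcl13 (log2 fold change 2.50, adjusted p = 0.0296) and Cx3cl1 (2.33, 0.00263). Cx3cl1 ran from 1.98 to 2.79 without single libraries and was 3.18 without both libraries numbered 3. Paired by number (replicate block), 4 genes were called higher and 1 lower, Cxcl14 (-1.27), and the block changed no other call among the 8. Cxcl14 was also the 1 gene called lower without both libraries numbered 3 (-1.47), and ran from -2.36 to -0.24 without single libraries. Without single libraries from 3 to 5 genes were called higher and 0 lower. Cxcl12 ran from -0.35 to 0.21, with 0.16, 0.043 and 0.21 without control replicate 1, control replicate 2 and LPS replicate 3. Ackr3 turned sign without control replicate 3 (-0.036) and LPS replicate 1 (-0.059), up to 0.84 without control replicate 1. By the longest transcript, Cxcl12 was at 11.4 CPM per kilobase in control and 10.8 in LPS, Cxcl16 at 136 in LPS, and the control order below Cxcl16 became Cxcl12, Cx3cl1, Cxcl14.

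Over all genes, 1384 were called higher and 1022 lower. DESeq2 called 2079 and 1673, the replicate block 2343 and 2273, upper-quartile factors 1589 lower and library size alone 2054 lower. Without single libraries the counts ran from 379 to 1964 higher and from 112 to 1426 lower, lowest without control replicate 2, and without both libraries numbered 3 they were 3498 and 3159. The causes were not tested, except that scaling moved the median of all genes from -0.02 to -0.12 (upper quartile) and -0.18 (library size), and the share of higher calls from 57.5% to 39.8% and 32.4%. Depth limits the control levels of Cxcl9 and Cxcl11.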
